A study of Mus musculus with 4 samples.

Results

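The 46 genes described here encode rhodopsin-like receptors for neuropeptides and peptide hormones, together with the thrombin, protease-activated and complement receptors of the same class. They were chosen by symbol, from the receptor families named for their ligands. The rule uses no measured value, but earlier results of these data were known when the list was drawn up. Of the 46 symbols, 45 had a row in each of the 4 deposited value lists, among 28250 genes in all, and Galr3 was not analysed here. The cells were TBV2, a mouse embryonic stem cell (ESC) line of the 129/SvP background that depends on feeder cells and was grown with LIF to hold off differentiation. In 2 libraries the cells had been kept for 24 h with solvent, and in 2 libraries they had been kept for 24 h with 5 µM MS-275, an inhibitor of class I histone deacetylases. Wild-type and EGFP-transgenic TBV2 cells were both in use in the study, and the labels do not say which was sequenced. The labels also do not say whether the 2 libraries of a condition came from separate cultures, so the p-values measure only the spread between these libraries, which may be technical.

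Peptide receptors of this class span the membrane as a bundle of helices and pass the binding of a peptide to heterotrimeric G proteins inside the cell. Receptors that couple to Gi lower cyclic AMP, as the opioid, somatostatin and neuropeptide Y receptors do. Those that couple to Gs raise cyclic AMP, as the melanocortin receptors and the vasopressin V2 receptor do, and those that couple to Gq release calcium through phospholipase C, as the tachykinin, orexin, endothelin and angiotensin receptors do. They are best known from neurons, endocrine cells and vessel walls, where their peptides are cut from larger precursors. The ESC libraries were compared to see which of these receptor genes gave a signal with solvent and which gave more or less of it with MS-275.

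The value of a gene is a normalized expression signal that the authors made with Genomatix, not a read count. Across genes with at least 50 alignments the log2 value followed the log2 number of alignments per exon base (r between 0.923 and 0.942, a description across genes), so they are levels per length and can be compared between genes. Each library rested on 9785619 to 23467935 alignments, and at this depth 1 alignment on a gene with 2500 exon bases was worth a value between 0.00017 and 0.000409. A member at 0.001 therefore rested on a handful of alignments. That r was reached with the alignments filed under the opposite replicate number of the same condition, and was between 0.829 and 0.869 with those filed under the library's own number. Of the 32 member values at 0, 32 had no alignment in the file of the other replicate, against 21 in the file of the same replicate. Libraries are numbered below by their value lists, and alignments are summed over both libraries of a condition, which an exchange within a condition leaves as they are. ESC marker genes were present, with values of Pou5f1, the pluripotency factor Oct4, of 0.72660 and 2.33471 with solvent and 0.57475 and 0.78609 with MS-275.

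The 250 bases before the start are shown for 4 receptors called with MS-275 and for 1 that was not, to give the sequence context of the genes compared. The RefSeq promoter table (GRCm38.p6) held 33 of the members. It held no entry for Agtr1a, Avpr1b, Bdkrb1, Cckar, F2rl1, Galr1, Galr3, Mc2r, Mc4r, Mc5r, Oprk1, Sstr1 and Sstr5. Sstr2 (chr11:113619077-113619326, plus strand), Tacr3 (chr3:134828757-134829006, plus strand), Kiss1r (chr10:79916721-79916970, plus strand) and Hcrtr1 (chr4:130139163-130139412, minus strand) were called higher with MS-275 in the fit with a replicate block described below, Tacr3 and Hcrtr1 after entering it only through the MS-275 libraries. F2r (chr13:95618467-95618716, minus strand) was the best expressed receptor of the table and did not pass. The sequences run from 5′ to 3′ toward the start, and capitals mark matches on either strand to 4 motifs: the GC box GGGCGG, the cAMP response element TGACGTCA, the REST half-site TTCAGCACC and the TATA box TATAAA.
Sstr2: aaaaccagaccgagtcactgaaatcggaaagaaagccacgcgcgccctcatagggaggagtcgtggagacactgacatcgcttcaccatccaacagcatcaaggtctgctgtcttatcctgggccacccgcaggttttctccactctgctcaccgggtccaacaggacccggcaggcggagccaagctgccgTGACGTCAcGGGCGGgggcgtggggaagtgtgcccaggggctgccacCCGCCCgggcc
Tacr3: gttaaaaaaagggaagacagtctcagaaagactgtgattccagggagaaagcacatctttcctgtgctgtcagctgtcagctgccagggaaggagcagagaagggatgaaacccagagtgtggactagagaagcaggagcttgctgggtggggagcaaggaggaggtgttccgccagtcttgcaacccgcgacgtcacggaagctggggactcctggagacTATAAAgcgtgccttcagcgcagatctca
Kiss1r: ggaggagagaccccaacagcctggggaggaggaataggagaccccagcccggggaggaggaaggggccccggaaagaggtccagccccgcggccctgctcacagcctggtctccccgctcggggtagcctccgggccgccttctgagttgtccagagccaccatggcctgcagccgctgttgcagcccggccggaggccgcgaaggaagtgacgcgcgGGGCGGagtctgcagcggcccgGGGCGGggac
Hcrtr1: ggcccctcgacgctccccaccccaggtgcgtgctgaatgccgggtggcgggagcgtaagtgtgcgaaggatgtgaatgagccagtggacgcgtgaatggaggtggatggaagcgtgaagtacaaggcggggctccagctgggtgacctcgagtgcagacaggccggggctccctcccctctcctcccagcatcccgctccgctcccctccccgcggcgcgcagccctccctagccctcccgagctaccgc
F2r: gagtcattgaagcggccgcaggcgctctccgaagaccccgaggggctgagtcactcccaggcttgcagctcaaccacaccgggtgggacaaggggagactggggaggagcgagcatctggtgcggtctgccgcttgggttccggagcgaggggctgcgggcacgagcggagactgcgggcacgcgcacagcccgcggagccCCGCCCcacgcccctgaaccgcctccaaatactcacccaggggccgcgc

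Sstr2 held a full cAMP response element that began 58 bases before its start, with a GC box beginning 49 bases before the start on the same strand and another 11 bases before it on the other strand. Tacr3 held a TATA box that began 29 bases before its start. Kiss1r held GC boxes that began 32 and 10 bases before its start, F2r held a GC box on the other strand 49 bases before its start, and these letters were not in the Hcrtr1 window. Over the 40 promoters of the 33 members, the GC box was in 8, against 32.7% of all 32851 promoters of the same length. The cAMP response element was in 1, that of Sstr2, and in 1.55% of all promoters. The REST half-site was in 0 of the 40 and in 0.301% of all promoters, and the TATA box was in 4 of the 40 and in 12.4% of all promoters. The motifs did not overlap each other in these windows. The median GC content was 55.2% in the members' promoters and 52.4% in all promoters, and the median ratio of observed to expected CpG was 0.348 and 0.373.

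With solvent, the receptors were at low levels. Only 5 of the 45 reached a value of 0.01 in either solvent library, and 17 and 7 of them were listed at 0 in solvent replicates 1 and 2. With MS-275, 14 members reached 0.01 in at least 1 library, and 5 and 3 were listed at 0. A group of 5 members was at 0 in both solvent libraries and above 0 in at least 1 MS-275 library, and 0 members showed the opposite. The 5 were Npy2r, Galr1, Oprm1, Sstr1 and C5ar1, all at 0.00138 or less with MS-275, and Sstr1 had no alignment on its exons. The same count over all listed genes is not given here, so it only describes these low members. Over all 28250 listed genes, 7981 and 7456 were at 0 with solvent and 6056 and 6037 with MS-275. A value of 0.01 was reached by 14104 and 12926 of them with solvent and by 15509 and 14420 with MS-275. Fewer zeros with MS-275 were thus seen over all genes too. The median member had a value of 0.00163 and 0.00057 with solvent (replicates 1 and 2) and 0.00559 and 0.00213 with MS-275, while the median of all listed genes went from 0.00995 and 0.00606 to 0.01681 and 0.01109.

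**Figure D1:**
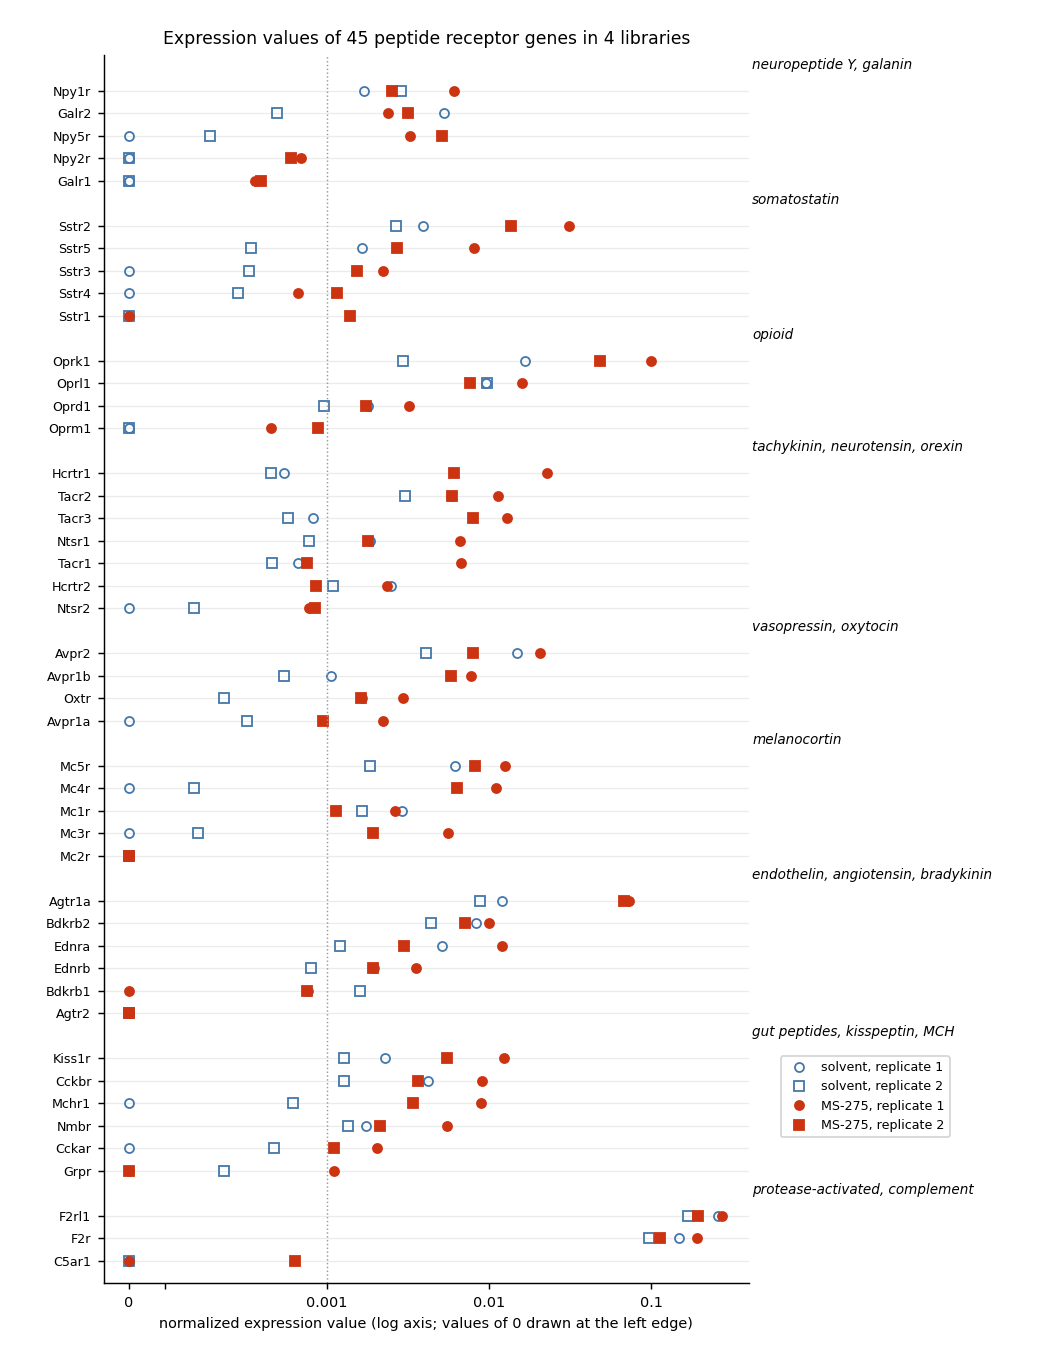
Normalized expression value (log axis) of the 45 receptor genes in the 4 libraries, grouped by ligand family; open blue symbols are solvent, filled red symbols MS-275, circles replicate 1 and squares replicate 2, with values of 0 drawn at the left edge and the filter minimum of 0.001 as a dotted line. F2rl1 and F2r stand apart at about 0.1 to 0.3 in all libraries, and Oprk1 and Agtr1a rise toward 0.1 with MS-275 only.

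The main test compared the 2 conditions with limma on log2(value + 0.005), a scale that understates the change of low genes, for genes at 0.001 or more in at least 2 libraries. Of the 45 members, 32 passed this filter, 8 of them only through the MS-275 libraries. Without a replicate block, 0 members were called higher and 0 lower at an adjusted p under 0.05, while an unadjusted p under 0.05 was reached by 13 in the higher and 0 in the lower direction. Among all 20336 genes tested, 0.00492% were called higher and 0.0% lower in this fit. An unadjusted p under 0.05 was reached by 2974 of the 20336 in the higher and by 564 in the lower direction. Headers in the deposited tables mark the first library of each condition as old, and same-numbered libraries deviated together, so a second fit took the replicate number as a block. With the block, 13 of the 32 members tested were called higher and 0 lower. Over all genes tested, 21.0% were called higher and 6.46% lower with the block. Of the 13 members, 6 (Tacr3, Hcrtr1, Mc3r, Mc4r, Mchr1 and Npy5r) had passed the filter only through the MS-275 libraries. Such genes could enter the test only by being higher there, so the count of 13 and the p-values of these 6 are a description. The 13 members at an unadjusted p under 0.05 without the block included these 6. They also included Sstr3, which passed the filter the same way, so that count is a description too. In these bulk libraries, more cells of a type that uses a receptor and more receptor RNA per cell cannot be told apart.

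Over all 45 members the median log2 fold change was 0.33 (0.52 between the replicate 1 libraries and 0.26 between the replicate 2 libraries), against 0.060 over all 28250 listed genes. Of these listed genes 4500 were at 0 in all 4 libraries, and so were 2 of the members. Among genes tested the median was 0.51 over 32 members and 0.197 over all 20336. Of these 32, 8 were tested only through the MS-275 libraries. The 2 MS-275 libraries both lay above the 2 solvent libraries for 24 members and both lay below them for 1, where 26.1% and 9.09% of all listed genes did so. A fold rule asked for a difference of at least 2-fold in both replicate pairs, with values under 0.001 set to 0.001. It was met by 14 of the 45 members in the higher direction and 0 in the lower direction, and by 11.5% and 2.04% of all listed genes. At a minimum of 1.5-fold it was met by 22 members and by 17.9% of all listed genes in the higher direction. With values under 0.005 set to 0.005 it was met by 3 members (6.67%), Sstr2, Oprk1 and Agtr1a, against 6.59% of all listed genes, and with a floor of 0.01 by Oprk1 and Agtr1a alone (4.44%), against 4.47%. With a floor of 0.005 or 0.01 the members' share was thus close to that of all listed genes.

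**Figure D2:**
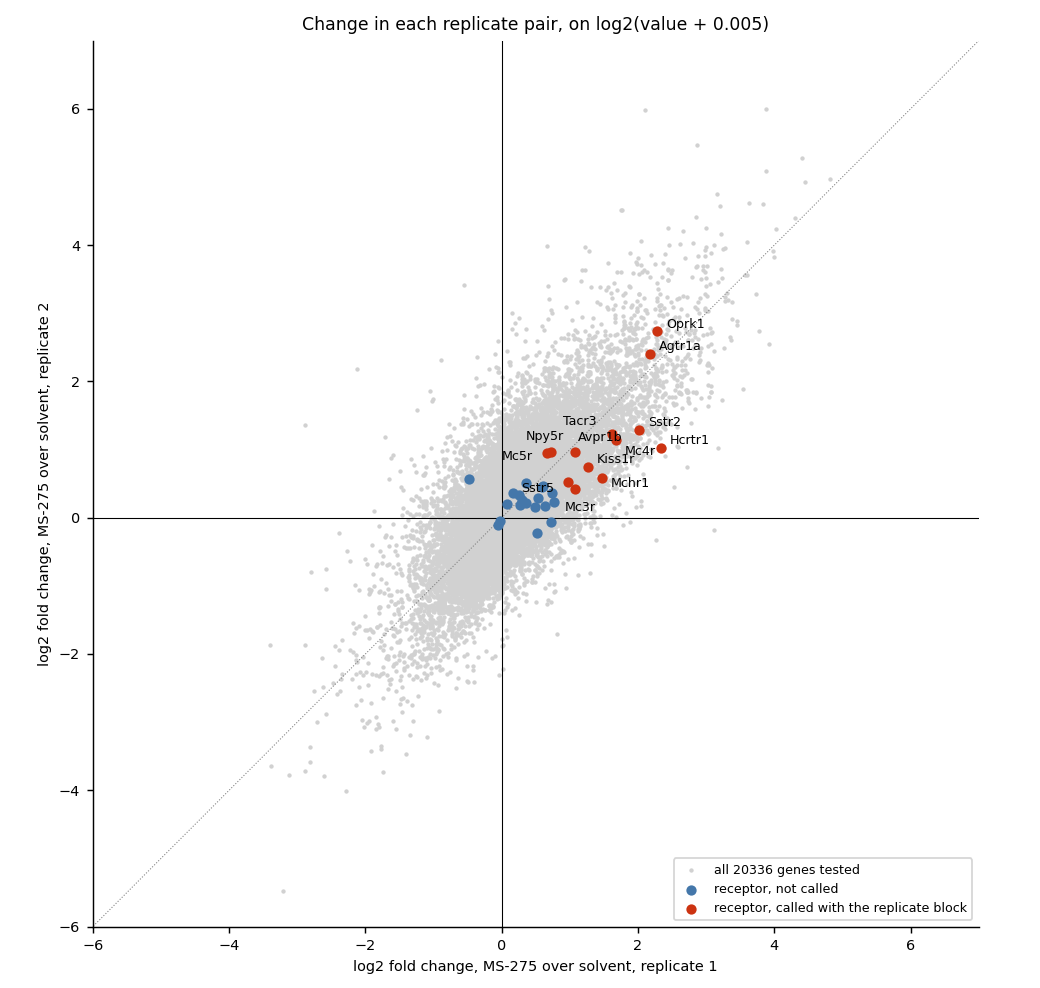
Log2 fold change of MS-275 over solvent, on log2(value + 0.005), between the replicate 1 libraries (x axis) and between the replicate 2 libraries (y axis); grey points are all 20336 genes tested, blue points receptors not called and red points the 13 receptors called with the replicate block. All 13 lie in the upper right quadrant, with Oprk1 and Agtr1a farthest along the diagonal.

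Among the opioid receptors, Oprk1, the kappa receptor for dynorphin, had values of 0.01675 and 0.00296 with solvent and 0.10029 and 0.04805 with MS-275. Both treated libraries lay above both solvent libraries, and replicate 2 was the lower library in both conditions. Its log2 fold change was 2.51 (SE 0.31 with the block), at an adjusted p of 0.113 without the block and 3.34e-05 with it. With this pseudocount it was the largest of the members, but with a pseudocount of 0.001 Mc4r (3.13) and Hcrtr1 (3.12) lay above Oprk1 (3.07). Oprl1, the nociceptin receptor, had 0.00958 and 0.00972 with solvent and 0.01595 and 0.00762 with MS-275, so that its groups overlapped (log2 fold change 0.15). Oprd1, the delta receptor, had 0.00178 and 0.00095 with solvent and 0.00319 and 0.00174 with MS-275 and did not pass. Oprm1, the mu receptor for beta-endorphin and morphine, was listed at 0 in both solvent libraries and at 0.00045 and 0.00088 with MS-275, and was below the filter.

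Among the receptors for vasoactive peptides, Agtr1a, the type 1 receptor through which angiotensin II constricts vessels, had 0.01208 and 0.00877 with solvent and 0.07249 and 0.06783 with MS-275. Its libraries agreed closely within each condition, and the ratio of treated to solvent value was 6.001 in the replicate 1 pair and 7.73 in the replicate 2 pair. This was a log2 fold change of 2.29 (SE 0.30 with the block), and the adjusted p was 0.0904 without the block and 5.41e-05 with it. Agtr2, the second angiotensin receptor, was listed at 0 in all 4 libraries. Ednra, an endothelin receptor of smooth muscle, had 0.00511 and 0.00120 with solvent and 0.01192 and 0.00297 with MS-275, at least 2-fold higher in both pairs but with overlapping groups and an adjusted p of 0.121 with the block. Ednrb, the endothelin receptor of endothelium and neural crest cells, had 0.00195 and 0.00080 with solvent and 0.00354 and 0.00193 with MS-275 and did not pass. Bdkrb2, the constitutive bradykinin receptor, had 0.00835 and 0.00438 with solvent and 0.00991 and 0.00712 with MS-275. Bdkrb1, the bradykinin receptor induced by injury, was the 1 member whose treated libraries both lay below the solvent libraries, with 0.00076 and 0.00159 against 0 and 0.00075, all near the value of a few alignments and below the filter.

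Among the somatostatin receptors, Sstr2, through which somatostatin restrains growth hormone and glucagon release, had 0.00391 and 0.00265 with solvent and 0.03114 and 0.01366 with MS-275. It was 7.96-fold higher in the replicate 1 pair and 5.15-fold higher in the replicate 2 pair. This was a log2 fold change of 1.65 (SE 0.31 with the block), and the adjusted p was 0.147 without the block and 0.000901 with it. Sstr5 had 0.00163 and 0.00034 with solvent and 0.00804 and 0.00271 with MS-275, a log2 fold change of 0.75 that passed with the block (adjusted p 0.0254). Without MS-275 replicate 1 this value fell to 0.37. Sstr3, a receptor of primary cilia, had 0 and 0.00033 with solvent and 0.00221 and 0.00153 with MS-275, with an adjusted p of 0.144 with the block. Sstr4 and Sstr1 were below the filter, Sstr4 with 0 and 0.00028 against 0.00066 and 0.00115. Sstr1 was listed at 0 except in MS-275 replicate 2, at 0.00138, but no alignment was counted on its exons in any library.

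Among the tachykinin, neurotensin and orexin receptors, Hcrtr1, the receptor for orexin A from the wake-promoting neurons of the hypothalamus, had 0.00054 and 0.00045 with solvent and 0.02287 and 0.00610 with MS-275. The solvent libraries held 3 distinct alignment positions on its exons between them. Its log2 fold change of 1.68 (SE 0.30 with the block) had an adjusted p of 0.0936 without the block and 0.000739 with it, for a gene that entered the test only through the MS-275 libraries, and it fell to 1.01 without MS-275 replicate 1. Hcrtr2, the other orexin receptor, had 0.00248 and 0.00109 with solvent and 0.00235 and 0.00086 with MS-275, slightly lower in both pairs (log2 fold change -0.040). Tacr3, the neurokinin B receptor that acts on the neurons driving gonadotropin release, had 0.00082 and 0.00057 with solvent and 0.01291 and 0.00799 with MS-275. Both treated libraries were far above both solvent libraries, with a log2 fold change of 1.42 (adjusted p 0.000682 with the block and 0.0713 without it). Tacr3 too entered the test only through the MS-275 libraries. Tacr2, the neurokinin A receptor of smooth muscle, had 0.00579 and 0.00302 with solvent and 0.01133 and 0.00591 with MS-275, without overlap and without passing (adjusted p 0.161 with the block). Tacr1, the substance P receptor, reached 0.00666 in MS-275 replicate 1 and lay at 0.00046 to 0.00075 in the others, so it had only 1 library above the filter. Ntsr1 had 0.00184 and 0.00077 with solvent and 0.00660 and 0.00180 with MS-275, and Ntsr2 had 0 and 0.00015 against 0.00077 and 0.00084. Neither neurotensin receptor passed, and Ntsr2 was not tested.

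Among the melanocortin receptors, Mc4r, which restrains feeding in the hypothalamus, had 0 and 0.00015 with solvent and 0.01096 and 0.00634 with MS-275. Mc3r, its companion in energy balance, had 0 and 0.00016 with solvent and 0.00559 and 0.00191 with MS-275. Mc5r, known from exocrine glands, had 0.00616 and 0.00183 with solvent and 0.01261 and 0.00817 with MS-275. All 3 had treated libraries above solvent libraries, with log2 fold changes of 1.41, 0.75 and 0.80. The adjusted p were 0.000575, 0.0215 and 0.0382 with the block and 0.0614, 0.147 and 0.401 without it. Mc4r and Mc3r entered the test only through the MS-275 libraries, so their p-values are a description, and Mc5r did not. The change of Mc5r fell to 0.45 without solvent replicate 2. In the limma fit with the block, its adjusted p was 0.0526 with a pseudocount of 0.001. It was 0.0601 under median-ratio scaling and 0.383 under quantile normalization, so its call depended on the setting. Mc1r, the pigment cell receptor for melanocyte-stimulating hormone, had 0.00291 and 0.00163 with solvent and 0.00261 and 0.00114 with MS-275, with log2 differences of -0.056 and -0.11 in the replicate pairs. Mc2r, the adrenal receptor for corticotropin, was listed at 0 in all 4 libraries.

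Among the gut peptide, bombesin, kisspeptin and melanin-concentrating hormone receptors, Mchr1, the receptor for melanin-concentrating hormone, had 0 and 0.00062 with solvent and 0.00889 and 0.00339 with MS-275, a log2 fold change of 1.03 (adjusted p 0.00661 with the block and 0.108 without it) for a gene tested only through the MS-275 libraries. Kiss1r, the kisspeptin receptor needed for puberty, had 0.00226 and 0.00128 with solvent and 0.01243 and 0.00553 with MS-275, a log2 fold change of 1.005 that passed with the block (adjusted p 0.00910, and 0.186 without it). Both were smaller without MS-275 replicate 1, and fell to 0.66 for Mchr1 and 0.64 for Kiss1r. Cckbr, the gastrin receptor, had 0.00419 and 0.00127 with solvent and 0.00897 and 0.00362 with MS-275, at least 2-fold higher in both pairs but overlapping between conditions. Cckar, the cholecystokinin receptor of gall bladder and pancreas, had 0 and 0.00047 with solvent and 0.00204 and 0.00111 with MS-275. Nmbr, the neuromedin B receptor, had 0.00174 and 0.00134 with solvent and 0.00547 and 0.00213 with MS-275. These 3 did not pass with the block (adjusted p 0.121, 0.249 and 0.214). Grpr, the receptor for gastrin-releasing peptide, was at 0.00110 in MS-275 replicate 1, at 0.00023 in solvent replicate 2 and at 0 in the others.

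Among the vasopressin and oxytocin receptors, Avpr1b, the pituitary vasopressin receptor that promotes corticotropin release, had 0.00106 and 0.00054 with solvent and 0.00774 and 0.00582 with MS-275. The log2 change of 1.02, from 1.07 and 0.97 in the replicate pairs, passed with the block (adjusted p 0.00444, and 0.0935 without it). Avpr2, the kidney receptor for water retention, had 0.01493 and 0.00409 with solvent and 0.02050 and 0.00799 with MS-275, with overlapping groups and no call in either fit (log2 fold change 0.44). Its change turned to -0.073 after quantile normalization and to -0.13 without solvent replicate 2, so no direction is given for it. Avpr2 held only 3 distinct alignment positions with solvent and 7 with MS-275, on the 539 exon bases counted for it. Oxtr, the oxytocin receptor, had 0.00165 and 0.00023 with solvent and 0.00295 and 0.00161 with MS-275, and Avpr1a, the vascular vasopressin receptor, had 0 and 0.00032 against 0.00221 and 0.00094. Neither passed, and Avpr1a was not tested.

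Among the neuropeptide Y and galanin receptors, Npy5r, a feeding receptor for neuropeptide Y, had 0 and 0.00019 with solvent and 0.00325 and 0.00509 with MS-275, a log2 fold change of 0.84 (adjusted p 0.00890 with the block and 0.0873 without it). It was tested only through the MS-275 libraries. Npy1r, which mediates vessel constriction by the same peptide, had 0.00170 and 0.00284 with solvent and 0.00611 and 0.00250 with MS-275, overlapping between conditions. Galr2 had 0.00530 and 0.00049 with solvent and 0.00237 and 0.00317 with MS-275, and moved down in the replicate 1 pair and up in the replicate 2 pair. Npy2r and Galr1 were listed at 0 in both solvent libraries, and reached 0.00069 and 0.00060 (Npy2r) and 0.00036 and 0.00039 (Galr1) with MS-275, below the filter.

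The remaining receptors are those of proteases and complement. F2rl1, the trypsin-activated receptor PAR-2, and F2r, the thrombin receptor PAR-1, are cleaved by proteases in place of binding a released peptide, and were the best expressed members. F2rl1 had 0.25819 and 0.16763 with solvent and 0.27317 and 0.19339 with MS-275. F2r had 0.14758 and 0.09683 with solvent and 0.19123 and 0.11278 with MS-275. The replicates differed more than the conditions did for both genes, and neither was called (log2 fold changes 0.14 and 0.29, adjusted p 0.675 and 0.361 with the block). The direction for F2rl1 turned to -0.14 under median-ratio scaling and to -0.16 without solvent replicate 2, and that for F2r to -0.082 without MS-275 replicate 1. Together they held 77.8% and 82.0% of the summed member values with solvent, and 51.3% and 55.5% with MS-275. C5ar1, the complement C5a receptor of myeloid cells, was listed at 0 except in MS-275 replicate 2, at 0.00063.

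The alignments behind these values were counted as distinct positions (position and strand) on GENCODE M1 exons of mm9. Summed over both libraries of a condition, Oprk1 (chr1:5578574-5596212, plus strand) had 100 distinct positions with solvent and 837 with MS-275, and Agtr1a (chr13:30428310-30474736, plus strand) had 65 and 322. Sstr2 (chr11:113480656-113487319) had 21 and 119, and Tacr3 (chr3:134491971-134597545) had 8 and 92. Among the 13 members called with the block, the lowest counts with solvent were those of Mc4r, with 1 position against 63, of Npy5r, with 1 against 27, and of Mc3r, with 1 against 25. Hcrtr1 and Mchr1 had 3 each with solvent, against 76 and 33 with MS-275. In all, 38 of the 45 members had more distinct positions with MS-275, 4 had more with solvent and 3 had none in any library. In both solvent libraries together 9 members had none. Over the 21969 listed genes with GENCODE exons, 52.7% had more with MS-275 and 32.7% had more with solvent. Of the 13 members called with the block, 8 had fewer than 10 positions over both solvent libraries, and at this depth a ratio for them carries a wide counting error.

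Tested on the distinct positions with limma-voom, 24 members had at least 10 positions in at least 2 libraries. Of these, 10 were called higher without the block and 12 with it, against 16.1% and 29.2% of the 14849 genes tested. Of the 24, 14 met the minimum only through the MS-275 libraries, among them 7 of the 10 and 8 of the 12, so these counts are a description and support nothing. The 12 shared 11 genes with the 13 called on the values, which is 11 of 12 and 11 of 13. Ednra was called on positions alone (21 against 55 positions, adjusted p 0.0309 with the block), and Npy5r and Mc3r had too few positions to be tested. Agtr1a had a log2 fold change of 2.33 on positions (SE 0.29, adjusted p 2.16e-05 with the block and 0.00603 without it), and Oprk1 had 3.07 (SE 0.27, adjusted p 1.93e-06 and 0.00520). Both had at least 10 positions in every library. Mc4r, Hcrtr1, Mchr1, Tacr3 and Avpr1b had larger values on this measure with the block (5.22, 4.25, 3.61, 3.43 and 3.32), from 1 to 8 solvent positions. F2r and F2rl1 had 0.26 and 0.076 on this measure and were not called.

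**Figure D3:**
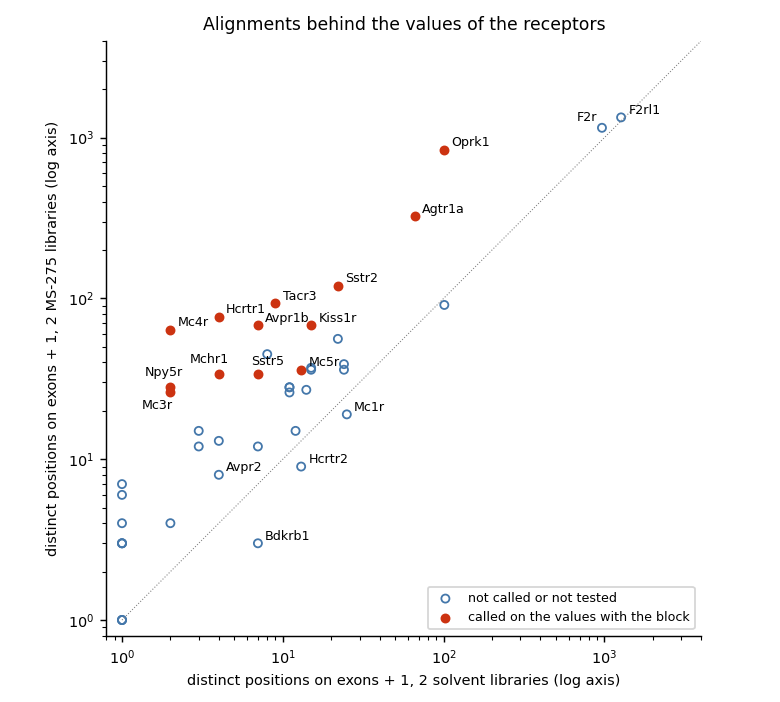
Distinct alignment positions on exons, plus 1, summed over the 2 solvent libraries (x axis, log) and the 2 MS-275 libraries (y axis, log), for the 45 receptors; filled red points are the 13 called on the values with the block, and the dotted line marks equal numbers. F2r and F2rl1 lie near the line at about 1000 positions, while Oprk1 lies at 100 against 837 and Mc4r at 1 against 63.

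With MS-275 the positions of Oprk1 fell in all 35 windows of 200 bases along its joined exons, and those of Agtr1a in all 13. With solvent they fell in 27 of the 35 and 12 of the 13, and exon 1 of Oprk1 and exon 3 of Agtr1a held none. In Oprk1 the last exon held 82.2% of the positions with MS-275 and 82.0% with solvent, and 56.7% of the exon bases. In Agtr1a the last exon, which holds 79.7% of the exon bases, had 84.5% of the positions with MS-275 and 89.2% with solvent. In Tacr3 the last exon had 91.3% of the positions with MS-275 and 65.1% of the bases, while the first 3 exons together had 1 position. The low counts of Tacr3 and Hcrtr1 with solvent, 8 and 3 positions, do not allow a profile in that condition.

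**Figure D4:**
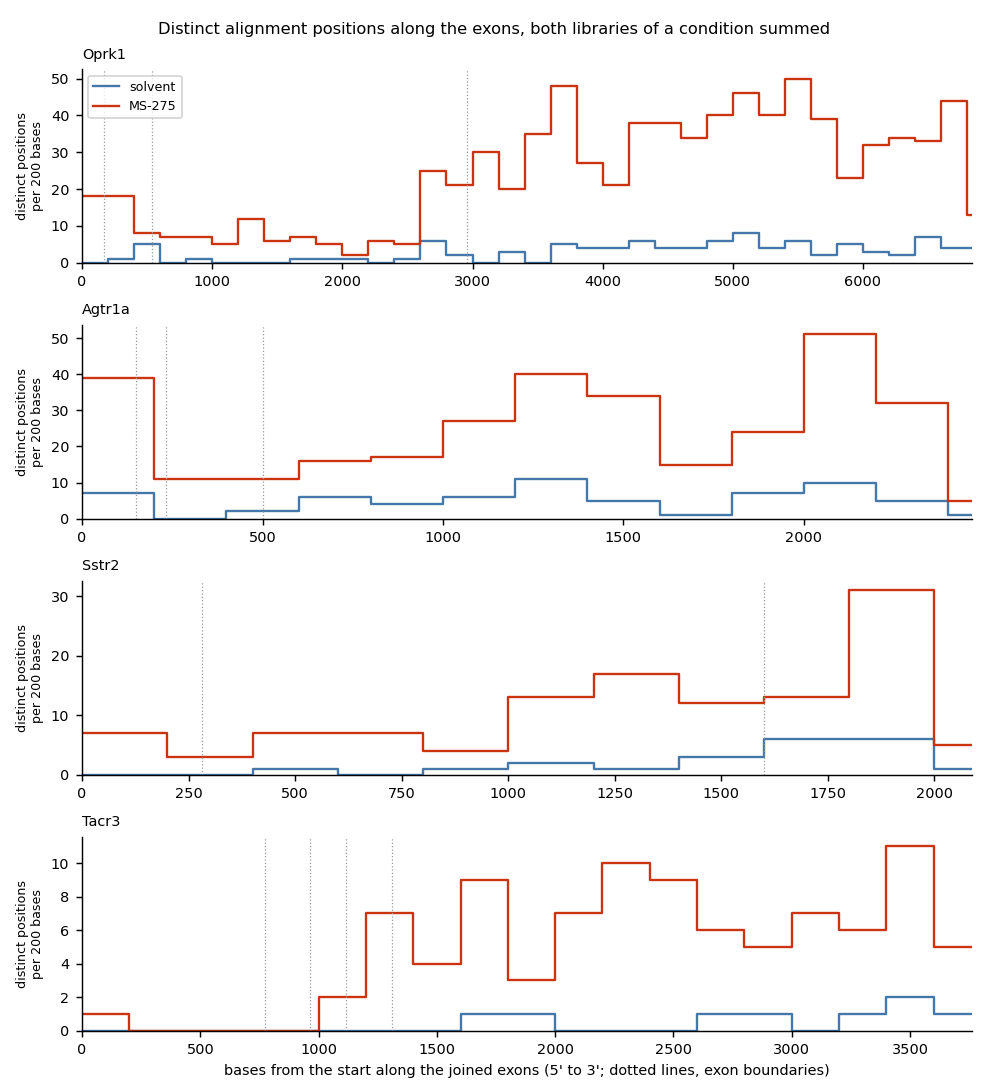
Distinct alignment positions per 200 bases along the joined exons of Oprk1, Agtr1a, Sstr2 and Tacr3, from the 5′ to the 3′ end, with both libraries of a condition summed (blue solvent, red MS-275; dotted lines are exon boundaries, and the last step of each gene is shorter than 200 bases). MS-275 lies above solvent in all 35 windows of Oprk1 and all 13 of Agtr1a, and most positions of Oprk1 and Tacr3 fall in the last exon.

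The peptides that these receptors bind are made as precursors, and 25 of 30 precursor and ligand genes were listed. With the block 11 of the 23 tested were called higher and 1 lower, where 21.0% and 6.46% of all genes tested were. Their median log2 fold change was 0.63, against 0.060 over all listed genes. Pyy, the gut peptide YY that acts on the neuropeptide Y receptors, had 0 and 0.00464 with solvent and 0.03159 and 0.07528 with MS-275 (log2 fold change 2.96, adjusted p 8.42e-06 with the block and 0.0703 without it). Nts, the neurotensin precursor, had 0 and 0.00106 with solvent and 0.02165 and 0.01927 with MS-275 (log2 fold change 2.21, adjusted p 4.13e-05 with the block). The gene called lower was F2, prothrombin, with 0.01868 and 0.01017 against 0.00744 and 0.00430 (log2 fold change -0.82, adjusted p 0.0466 with the block and 0.486 without it).

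The ligand genes of the called receptors gave a mixed picture. Pdyn, the dynorphin precursor for Oprk1, had 0.02527 and 0.00589 with solvent and 0.01958 and 0.00880 with MS-275 (log2 fold change 0.021). Agt, the angiotensinogen gene for Agtr1a, was listed at 0.00056 and 0 in both conditions and was not tested. Among the ligands of the somatostatin receptors, Cort had 0.02668 and 0.01027 with solvent and 0.02208 and 0.01104 with MS-275, and Sst was at 0.00171 or less in all 4 libraries. Neither was called. Hcrt, the orexin precursor, had 0.00175 and 0.00084 with solvent and 0.00180 and 0.00098 with MS-275, and Avp was at 0.00286 or less. Pmch, the melanin-concentrating hormone precursor, was the precursor with the highest level, with 0.15301 and 0.10767 with solvent and 0.15638 and 0.06113 with MS-275, and it was not called. Tac2, the neurokinin B precursor for Tacr3, had 0.01501 and 0 with solvent and 0.02825 and 0.01761 with MS-275 and was called with the block (log2 fold change 1.45, adjusted p 0.00581). Pomc, the precursor of the melanocortin peptides, had 0.01360 and 0.01396 with solvent and 0.02638 and 0.05780 with MS-275 (log2 fold change 1.24, adjusted p 0.0104 with the block). Npy had 0 and 0.00078 with solvent and 0.01142 and 0.01462 with MS-275 (log2 fold change 1.74, adjusted p 0.000133 with the block), and was tested only through the MS-275 libraries. None of these precursors was called without the block.

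Of the 13 genes that cut, process or store peptides, 7 were called higher and 1 lower with the block, against 21.0% and 6.46% of all genes tested, and their median log2 fold change was 0.73. Chga, the granule protein chromogranin A, had 0.09042 and 0.04452 with solvent and 0.20412 and 0.17530 with MS-275 (log2 fold change 1.498), and Scg5, the chaperone of prohormone convertase 2, had 0.00551 and 0.00773 against 0.02826 and 0.01843 (log2 fold change 1.27). Pcsk1, prohormone convertase 1, was the gene called lower, with 0.01787 and 0.01626 against 0.00452 and 0.00199 (log2 fold change -1.43, adjusted p 0.00163 with the block and 0.146 without it). Pcsk2, the other main convertase of neuroendocrine cells, had 0 and 0.00017 with solvent and 0.00676 and 0.00307 with MS-275. It was among the 2 of the 7 that were tested only through the MS-275 libraries.

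Of 30 further peptide and glycoprotein hormone receptors, 17 were tested and 10 were called higher and 0 lower with the block, against 21.0% and 6.46% of all genes tested. Of the 17, 7 had passed the filter only through the MS-275 libraries, 4 of them among the 10, so this count is a description. The median log2 fold change of the 30 was 0.31. Prokr2, a prokineticin receptor of the olfactory and reproductive axis, had 0.00185 and 0.00076 with solvent and 0.03044 and 0.01513 with MS-275 (log2 fold change 2.09). Qrfpr, 1 of those 4, had 0.00061 and 0 against 0.01933 and 0.01348 (log2 fold change 2.00). Inside the cell, 12 of 39 tested genes for G protein subunits, receptor kinases, arrestins, effectors and RGS proteins were called higher with the block and 0 lower. This was 30.8%, against 21.0% higher of all genes tested, and 1 of the 12 had passed the filter only through the MS-275 libraries. The median log2 fold change of the 40 listed was 0.33. Rgs2, which shortens the signal of Gq, had 0.00980 and 0.01289 with solvent and 0.14130 and 0.17151 with MS-275 (log2 fold change 3.30). Rgs16 had 0.04384 and 0.03400 against 0.15027 and 0.29374 (log2 fold change 2.30).

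**Figure D5:**
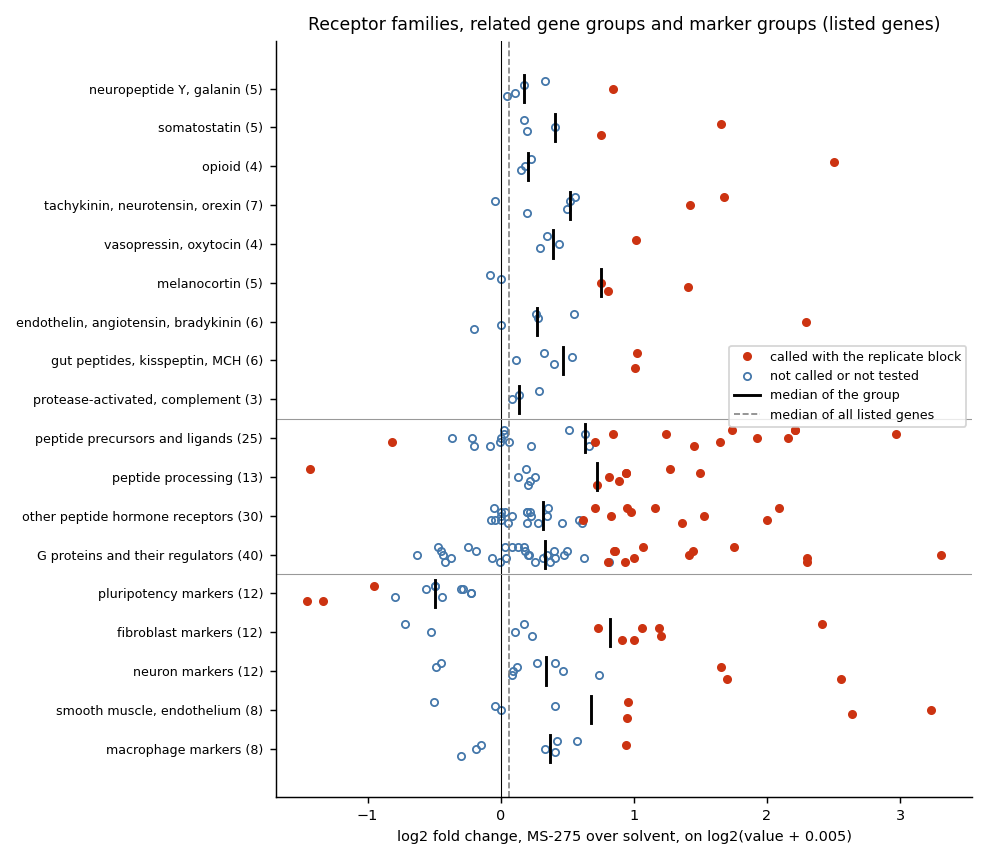
Log2 fold change of MS-275 over solvent on log2(value + 0.005) for the receptor families (top), the related gene groups (middle) and the marker groups (bottom), with the number of listed genes in brackets; filled red points were called with the replicate block, open points were not called or not tested, bars are group medians and the dashed line the median of all listed genes at 0.060. The median of each receptor family lies to the right of the dashed line, and that of the pluripotency markers lies to the left, at -0.49.

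Markers of other cell types were read beside these values, because TBV2 is a feeder-dependent line. Whether feeder cells were in the sequenced cultures is not stated in the sources used here. The counts of markers called with the block stand against 21.0% higher and 6.46% lower over all genes tested. Of 12 pluripotency markers, 0 were called higher and 3 lower with the block, and their summed value was 6.56 and 24.5 with solvent and 5.42 and 14.5 with MS-275. Of 12 fibroblast markers, 7 were called higher and 0 lower, and their summed value was 0.488 and 0.625 with solvent and 0.871 and 1.14 with MS-275. Among these 12, 9 were higher and 2 lower in both replicate pairs. Both treated libraries lay above the solvent libraries for 8 and below them for 1 (26.1% and 9.09% of all listed genes). The fold rule of 2-fold in both pairs was met by 2 in the higher and 1 in the lower direction (11.5% and 2.04% of all listed genes). Of 8 smooth muscle and endothelial markers, 4 were called higher (Cdh5 after being tested only through the MS-275 libraries) and 0 lower, with sums of 0.133 and 0.102 against 0.405 and 0.205. In that list Emcn, an endothelial surface protein, was at 0 in all 4 libraries. Of 12 neuron markers, 10 were tested and 3 were called higher and 0 lower, with sums of 1.42 and 2.43 against 1.41 and 2.42. Stmn2 made up most of these sums, with 0.85579 and 1.99105 with solvent and 0.59992 and 1.44928 with MS-275. The 3 called were Elavl3 (0.03797 and 0.03530 against 0.14636 and 0.39011), Syt1 (0.00915 and 0.00191 against 0.03243 and 0.02267) and Nefl (0.05848 and 0.03325 against 0.15094 and 0.14849). Of the 12, 7 had both treated libraries above both solvent libraries, against 26.1% of all listed genes, and the median log2 fold change was 0.34. Dcx and Mtap2 were at 0.00068 or less in every library. Of 8 macrophage markers, 7 were tested and 1 was called higher, with sums of 0.191 and 0.124 against 0.177 and 0.137, and Ptprc, the pan-leukocyte marker CD45, was at 0 in both solvent libraries and at 0.00232 and 0.00111 with MS-275. The macrophage marker called was Tyrobp, an adaptor of myeloid receptors, with 0 and 0 against 0.00163 and 0.00889, which was tested only through the MS-275 libraries. The fibroblast and smooth muscle sums were thus higher with MS-275, as Agtr1a and Oprk1 were, and 3 neuron markers were called higher. The part of these cell types in the receptor values was not tested.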

How the data were processed

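RNA-seq of TBV2 cells was analysed in 4 libraries, grouped by their titles, 2 with solvent and 2 with 5 µM MS-275. Reads had been mapped to mm9, and the authors turned them into a normalized expression signal with Genomatix. The aligner, version and formula are not given in the sources used here. For each library the authors deposited signal values for 28250 genes and the alignments, each 35 bases long. Their ratio tables and shortened lists were not used. The 46 members and the other gene lists were chosen with earlier results of these data known.

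The 20336 genes that reached 0.001 in 2 or more libraries were fitted with limma 3.58.1 in R 4.3.3 (lmFit and eBayes with a trend, on log2(value + 0.005)), and p was adjusted over all of them by the Benjamini-Hochberg method. The alternative with the replicate number as a block rests on the authors' headers and on the correlation of deviations from the group means between same-numbered libraries (r = 0.764 over 20336 genes, and 0.535 over 14849 genes on positions). The steps were tested on simulated data. Distinct positions on GENCODE M1 exons were tested with limma-voom where at least 10 were present in at least 2 libraries. Python 3.11.15, numpy 2.4.6, pandas 2.3.3 and matplotlib 3.10.9 were used for tables and figures. Mouse promoters were from RefSeq (GRCm38.p6).

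Named genes were up to 12 members with the largest change among those called with the block, the 6 with the highest mean value, their ligand genes, and the 2 genes of each other list that changed most in each direction. All other members, and the other genes given with values, were chosen after their values were seen. Alternatives were other pseudocounts, filters, scalings and floors, each library left out, and the positions. In the alignments filed under replicate 1, 53.2% (solvent) and 54.4% (MS-275) repeat a position, against 0% under replicate 2.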

Additional observations from a re-analysis of the deposited data

How the results depend on the processing

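The number of members called higher was 0 without the replicate block and 13 with it. With the block it was 12 of 32 with a pseudocount of 0.001, 12 with 0.02, 12 under median-ratio scaling and 8 under quantile normalization. It was 3 of 7 with a mean value of at least 0.01. With no filter, where genes at 0 in every library enter the estimate of the spread, it was 0. The share of all genes called under these settings is not given here, so the counts show only how the calls moved. On distinct positions 10 of 24 members were called without the block and 12 with it, against 16.1% and 29.2% of all genes tested. No member was called lower under any of these alternatives. Among the named members called with the block, Npy5r, Kiss1r, Sstr5 and Mc5r lost the call under quantile normalization. Their adjusted p in that limma fit with the block was 0.0545, 0.102, 0.189 and 0.383. Leaving out each library in turn gave 0 calls in each case, in fits that leave 1 library in a group and take it to vary like the others. The median log2 fold change of the 45 members, 0.33, moved to 0.82 with a pseudocount of 0.001, 0.12 with 0.02 and 0.11 under quantile normalization. Over all listed genes the median was 0.108, 0.022 and 0 under these settings. With a library left out the members' median was 0.17 to 0.52, and that of all listed genes was 0 to 0.12. On positions the median was 1.44 and 1.36 without and with the block, over the 24 members tested there. All genes tested on positions had 0.114 and 0.118. Of those 24 members, 14 met the minimum only through the MS-275 libraries, so these medians are a description. The fold rule was met by 2 members with a floor of 0.01, 3 with 0.005 and 22 at 1.5-fold, and by 4.47%, 6.59% and 17.9% of all listed genes. Avpr2 turned to -0.073 under quantile normalization with and without the block, to -0.13 without solvent replicate 2 and to -0.051 without MS-275 replicate 1, in a range up to 1.002. F2r turned to -0.0052 without solvent replicate 2 and to -0.082 without MS-275 replicate 1, in a range up to 0.65. F2rl1 turned to -0.14 under median-ratio scaling with and without the block, to -0.16 without solvent replicate 2 and to -0.104 without MS-275 replicate 1, in a range up to 0.44. The cause of these changes was not tested. The other 12 named members kept their direction under every alternative run. They were named for being called with the block, and both MS-275 libraries lay above both solvent libraries in each. Leaving out a library, or changing the pseudocount or filter, could therefore not reverse them and does not test their direction. Only the scalings and the positions could have done so. Among the 12, Tacr3, Hcrtr1, Mc4r, Mchr1 and Npy5r were tested on the values only through the MS-275 libraries. Values near 0.001 rest on a few alignments, which limits what can be said of single receptors.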

Other observations

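Hcrtr2 (chr9:76073710-76171385, with 3705 exon bases) had more alignments in its introns than on its exons, as counts that are not scaled by length. Its introns are far longer than its exons. Its introns held 148 to 213 distinct positions in each library, against 3 to 7 on its exons, and its value was 0.00086 to 0.00248. Oprk1, a shorter gene with 6841 exon bases, had 9 to 107 intron positions against 28 to 518 on exons. Agtr1a, also shorter, had 4 to 34 against 26 to 175. The source of the Hcrtr2 intron signal was not tested.

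Agtr1b, the second mouse copy of the angiotensin type 1 receptor, had 0.00048 and 0.00040 with solvent and 0.00640 and 0.00466 with MS-275 (log2 fold change 0.95, adjusted p 0.00563 with the replicate block in limma and 0.0855 without it). It was tested only through the MS-275 libraries, so its p is a description. Its sequence is close to that of Agtr1a, and how reads shared by both copies were assigned is not given in the sources used here.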
